A study of Mus musculus with 23 samples.

Results

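The 9 genes described here serve the making, reuse, breakdown and sensing of the transmitter acetylcholine: Chat, Slc5a7, Slc10a4, Ache, Prima1, Colq, Chrm2, Chrna4 and Chrnb2. They were chosen by gene name, with earlier results of these data known, and all 9 had a row among the 38924 genes of every library. The data are ribosome-bound RNA from spinal cords of mice aged 2 weeks, precipitated with an antibody against an HA tag on the ribosomal protein Rpl22. The tagged protein is made only in cells where Cre recombinase has acted, and here Cre was under the control of the Chat gene (ChAT-Cre), so it marks motor neurons together with every other cell that has used that driver. Precipitates from mice without Cre hold RNA that came down without tagged ribosomes.

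The 23 libraries fall into 4 groups. Those with ChAT-Cre comprised 6 from mice with 1 copy of the C201R allele of Gars (GarsC201R/+) and 5 libraries from wild-type mice (Gars+/+). The groups without Cre had 6 GarsC201R/+ and 6 Gars+/+ libraries. Gars encodes glycyl-tRNA synthetase, and the series title places the mice before the onset of disease. All groups are labelled with 1 copy of the tagged Rpl22 allele (Rpl+/-), and the strain background is given as B6.CgxB6.129. The Cre groups are labelled Chat+/- and the others Chat+/+, and Chat is also 1 of the genes measured. Nothing in the labels ties each library to its own animal, so the p-values measure the spread between libraries, which may in part be technical. In such samples, fewer cells of a type and less RNA per cell cannot be told apart.

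Acetylcholine is made from choline and acetyl-CoA by choline acetyltransferase, the product of Chat. Released transmitter is split by acetylcholinesterase (Ache), and the freed choline is carried back into the terminal by the high-affinity choline transporter (Slc5a7). In spinal cord it is the transmitter of motor neurons, which use it at the muscle and on Renshaw cells, and of a set of interneurons that synapse on motor neurons themselves. Slc10a4 is an orphan member of the bile acid transporter family found on synaptic vesicles. Prima1 anchors acetylcholinesterase in neuronal membranes, and Colq is the collagen tail that holds the enzyme in the matrix of the neuromuscular junction. Chrm2 encodes an inhibitory muscarinic receptor, and Chrna4 and Chrnb2 encode subunits that join in a common neuronal nicotinic receptor.

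The start regions of the 3 genes with the largest average Cre effect among the 9 are printed with that of Chrna4, which did not pass the test in either genotype. Each sequence covers 250 bases before to 50 bases after the RefSeq start on GRCm38.p6, 5′ to 3′ on the strand of the gene. Chat lies at chr14:32465860-32466159 (minus strand), Slc5a7 at chr17:54298985-54299284 (minus), Slc10a4 at chr5:73006654-73006953 (plus) and Chrna4 at chr2:181039128-181039427 (minus). Capitals mark GGGCGG or its reverse complement, the GC box.
Chat: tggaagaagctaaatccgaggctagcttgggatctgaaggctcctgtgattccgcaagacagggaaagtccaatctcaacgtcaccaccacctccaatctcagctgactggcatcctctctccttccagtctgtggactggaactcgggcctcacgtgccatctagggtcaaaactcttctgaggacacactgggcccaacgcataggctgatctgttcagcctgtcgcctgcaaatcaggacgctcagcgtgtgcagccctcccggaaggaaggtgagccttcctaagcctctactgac
Slc5a7: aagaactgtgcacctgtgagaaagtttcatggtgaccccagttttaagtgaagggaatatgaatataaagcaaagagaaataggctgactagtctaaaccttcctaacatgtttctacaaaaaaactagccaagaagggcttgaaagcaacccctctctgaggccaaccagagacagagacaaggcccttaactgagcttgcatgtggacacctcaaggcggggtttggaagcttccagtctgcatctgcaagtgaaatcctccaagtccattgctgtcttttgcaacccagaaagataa
Slc10a4: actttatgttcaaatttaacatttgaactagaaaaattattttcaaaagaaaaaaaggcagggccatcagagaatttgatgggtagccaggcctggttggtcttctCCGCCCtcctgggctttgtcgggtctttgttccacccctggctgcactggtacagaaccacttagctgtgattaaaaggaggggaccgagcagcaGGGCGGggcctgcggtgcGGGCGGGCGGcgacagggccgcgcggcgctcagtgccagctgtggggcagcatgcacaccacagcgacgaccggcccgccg
Chrna4: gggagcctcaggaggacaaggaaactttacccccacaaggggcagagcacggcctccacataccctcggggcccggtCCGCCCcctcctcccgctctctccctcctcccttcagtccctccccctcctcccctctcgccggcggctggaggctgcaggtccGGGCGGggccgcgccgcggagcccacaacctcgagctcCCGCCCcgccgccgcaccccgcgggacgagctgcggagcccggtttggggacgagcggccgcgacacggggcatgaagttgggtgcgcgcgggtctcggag

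The 4 windows differ in base composition. Chat had 55.7% GC, Slc5a7 44.7%, Slc10a4 57.3% and Chrna4 74.3%, against a median of 52.7% over 32851 RefSeq windows of the same length. GGGCGG, searched on both strands with overlapping matches counted, occurred 4 times in Slc10a4 and 3 times in Chrna4, and was not in the Chat and Slc5a7 windows. Among the 8 of the 9 genes with a window, 6 held it, compared with 35.7% of all windows. TAATTA, a homeodomain core present in 5.3% of all windows, and CAGCACC, a piece of the REST element present in 7.1%, were in 0 of the 8. A GC box was therefore found both in a gene that rose strongly with Cre and in a gene that did not pass the test, and these matches are a description of letters only.

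Library totals ranged from 9031654 to 19671869 expected counts. A large share fell on ribosomal RNA-like genes, 53.0% to 75.3% in C201R Cre, 50.6% to 89.0% in wild-type Cre, 65.8% to 95.6% in C201R no-Cre and 55.5% to 88.5% in wild-type no-Cre libraries. Outside them remained 2927104 to 6237428 counts in C201R Cre libraries, 1213587 to 4466014 in wild-type Cre, 594383 to 4886780 in C201R no-Cre and 2170423 to 5582508 in wild-type no-Cre libraries. Motor neuron markers were present as the series title names: all 14 rose in the average Cre effect, with summed levels of 190 to 604 CPM in C201R Cre libraries and between 493 and 823 CPM for wild type with Cre, compared with 27.8 to 44.6 and 27.8 to 42.2 CPM without Cre. Oligodendrocyte markers remained in the Cre precipitates at 823 to 7310 CPM in C201R and 559 to 3140 CPM in wild type. C201R Cre replicates 4 and 6 had 5340 and 7310 CPM of them, and wild-type Cre replicate 2 had 3140 CPM. Gars could not check the genotype labels, since a single-base allele does not remove its counts (C201R minus wild type with Cre, log2 0.26, edgeR adjusted p = 0.532).

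Levels are given in CPM, the normalised read count after TMM scaling, which corrects library totals for unequal composition. Cre libraries were first set against no-Cre libraries of the same genotype, which asks whether the 9 genes came down with tagged ribosomes. In C201R mice, 6 of the 8 genes tested were higher with Cre and 0 were lower by edgeR's quasi-likelihood test at an adjusted p of 0.05, against 14.1% of all 12741 genes higher and 19.2% lower. In wild-type mice, 7 of 8 were higher and 0 lower, against 20.0% of 12485 genes higher and 25.9% lower. Colq was too low to be tested in either genotype. Across both genotypes together, 7 of 9 genes rose and 0 fell, against 22.1% and 34.7% of 14468 genes, and the median log2 fold change of the 9 was 1.93 while that of all genes was -0.28.

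**Figure D1:**
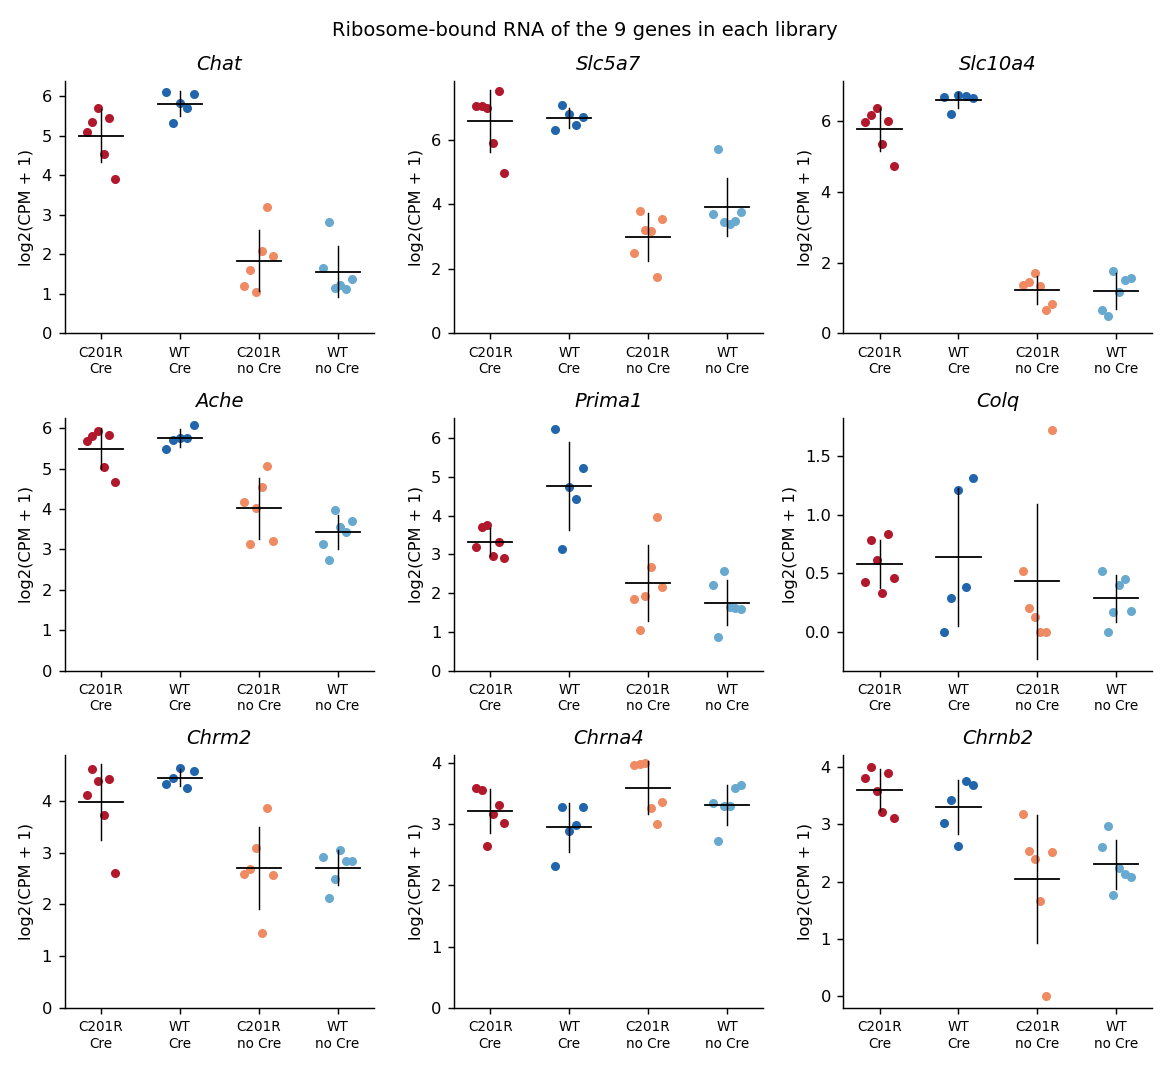
Level of each of the 9 genes in each library, as log2(CPM + 1), with C201R Cre, wild-type Cre, C201R no-Cre and wild-type no-Cre libraries from left to right. Points are libraries, horizontal bars are means and vertical bars are 1 SD; Chat, Slc5a7 and Slc10a4 show no overlap between Cre and no-Cre libraries in both genotypes.

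Chat, the enzyme that makes the transmitter (chromosome 14, 32408203 to 32465989, minus strand, GRCm38), ranged from 13.9 to 50.8 CPM with a median of 36.3 CPM in the 6 C201R Cre libraries. In the 6 C201R no-Cre libraries it ranged from 1.06 to 8.21 CPM with a median of 2.44 CPM. The groups did not overlap, and the log2 fold change was 3.62 ± 0.46 (SE; edgeR adjusted p = 3.46e-05). In the 5 wild-type Cre libraries Chat had 68.4, 39.1, 56.3, 51.1 and 65.4 CPM, while the 6 wild-type no-Cre libraries ranged from 1.18 to 6.00 CPM with a median of 1.47 CPM. Again every Cre library was above every no-Cre library, by log2 4.8 ± 0.42 (SE; edgeR adjusted p = 8.27e-07). The antisense gene Gm2990 overlaps the start of Chat but had only 324 counts in all 23 libraries, against 5350 counts of Chat in the C201R Cre group alone. The gene of the vesicular acetylcholine transporter lies within Chat on the same strand and was not analysed here, and reads of the 2 cannot be told apart from these counts.

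Slc5a7, the transporter that returns choline to the terminal (chromosome 17, 54273590 to 54299034, minus strand), ranged from 30.0 to 182 CPM with a median of 127 CPM in C201R Cre libraries, compared with 2.35 to 12.7 CPM and a median of 8.12 CPM in C201R no-Cre libraries. The log2 fold change was 3.70 ± 0.44 (SE; edgeR adjusted p = 2.10e-05), with no overlap. Wild-type Cre libraries had 76.9, 134, 111, 86.2 and 103 CPM, and wild-type no-Cre libraries ranged from 9.40 to 51.4 CPM with a median of 11.1 CPM. The groups were apart there too, at log2 2.63 ± 0.42 (SE; edgeR adjusted p = 1.20e-04). Wild-type no-Cre replicate 2 stood at 51.4 CPM while the other 5 stayed at or below 12.6 CPM. In TPM that library had 5.2, within the group range of 0.99 to 5.7.

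Slc10a4, the vesicle-associated orphan transporter (chromosome 5, 73006883 to 73012955, plus strand), showed the widest separation among the 9. It ranged from 25.6 to 80.3 CPM with a median of 61.5 CPM in C201R Cre libraries, whereas C201R no-Cre libraries ranged from 0.587 to 2.26 CPM with a median of 1.54 CPM. The log2 fold change was 5.16 ± 0.36 (SE; edgeR adjusted p = 6.82e-07), rank 5 among 12741 genes ordered from the largest rise. In wild-type Cre libraries it had 100.3, 71.4, 104, 102 and 99.6 CPM, against 0.419 to 2.41 CPM and a median of 1.55 CPM without Cre. The log2 fold change was 6.10 ± 0.38 (SE; edgeR adjusted p = 4.70e-08), also rank 5, and no library of one group reached the other. Mean levels with Cre were 40.3-fold those without in C201R mice and 67.8-fold in wild-type mice.

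Ache, the enzyme that ends transmission (chromosome 5, 137287519 to 137294466, plus strand), had the highest median level per length of the 9 in both no-Cre groups, 4.19 TPM in C201R and 5.16 TPM in wild type. In CPM it ranged from 24.5 to 59.7 CPM with a median of 52.7 CPM in C201R Cre libraries and from 7.78 to 32.3 CPM with a median of 16.1 CPM in C201R no-Cre libraries. These ranges overlapped, with 4 of 6 Cre libraries above every no-Cre library, and the log2 fold change was 1.41 ± 0.35 (SE; edgeR adjusted p = 0.00562). Wild-type Cre libraries had 43.4, 51.0, 53.0, 52.8 and 66.6 CPM, and wild-type no-Cre libraries ranged from 5.72 to 14.6 CPM with a median of 10.3 CPM. There was no overlap in wild type, where the log2 fold change was 2.47 ± 0.26 (SE; edgeR adjusted p = 3.65e-06).

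The anchors of acetylcholinesterase differed in level per length, with a median of 29.64 TPM of Prima1 and 0.35 TPM of Colq in C201R Cre libraries. Prima1, the membrane anchor (chromosome 12, 103196908 to 103242150, minus strand), ranged from 6.58 to 12.5 CPM with a median of 8.61 CPM in C201R Cre libraries and from 1.06 to 14.7 CPM with a median of 3.11 CPM in C201R no-Cre libraries. These overlapped, and the log2 difference of 1.00 ± 0.48 did not pass the test (SE; edgeR adjusted p = 0.121). The highest no-Cre value, 14.7 CPM, came from replicate 5, which had 594383 counts outside ribosomal RNA-like genes, 25 of them of Prima1. Without that library alone the log2 difference was 1.76 (edgeR adjusted p = 0.00147). Without C201R Cre replicates 4 and 6 as well, a set chosen after seeing the data, it was 1.96 (edgeR adjusted p = 9.47e-04). Prima1 in wild-type Cre libraries was spread widely, with 75.3, 7.85, 25.9, 20.8 and 36.7 CPM, but each was above the 0.837 to 4.94 CPM (median 2.08 CPM) of wild-type no-Cre libraries. The log2 fold change there was 3.79 ± 0.51 (SE; edgeR adjusted p = 3.16e-05).

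Colq, the collagen-tail anchor (chromosome 14, 31523082 to 31591343, minus strand), was near the limit of counting in every group. It ranged from 0.256 to 0.785 CPM in C201R Cre libraries and from 0 to 2.31 CPM in C201R no-Cre libraries. Wild-type Cre libraries had 0, 0.219, 1.32, 0.302 and 1.48 CPM, and wild-type no-Cre libraries 0 to 0.435 CPM. A library at 0 allowed up to 0.595 CPM in wild-type Cre replicate 1 (3 counts; counting error only). Over all 23 libraries the average Cre effect was log2 0.67 ± 0.63 (SE; edgeR adjusted p = 0.375). That rested on 1 library: without C201R no-Cre replicate 6, which held the 2.31 CPM, the average Cre effect was 1.58 (edgeR adjusted p = 0.0312).

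Among the receptor genes, Chrm2 and Chrnb2 rose with Cre in both genotypes and Chrna4 did not pass the test in either. The wild-type calls depended on scaling: on library totals alone Chrm2 was 1.85 (edgeR adjusted p = 0.0933) and Chrnb2 1.44 (0.223), and on log2(TPM + 1) Chrnb2 was 0.63 (limma adjusted p = 0.404). Those 2 fits called only 909 and 1454 of all genes, against 5735 in the main fit, so calls were lost among all genes as well. Chrm2, the M2 muscarinic receptor (chromosome 6, 36388084 to 36528414, plus strand), ranged from 5.08 to 23.6 CPM with a median of 18.0 CPM in C201R Cre libraries and from 1.72 to 13.5 CPM with a median of 5.24 CPM in C201R no-Cre libraries. Of the Cre libraries, 4 of 6 were above every no-Cre library, and the log2 fold change was 1.36 ± 0.41 (SE; edgeR adjusted p = 0.0183). Wild-type Cre libraries had 19.0, 20.8, 23.9, 17.9 and 22.8 CPM, all above the 3.35 to 7.25 CPM (median 6.15 CPM) of wild-type no-Cre libraries. The log2 fold change was 1.95 ± 0.27 (SE; edgeR adjusted p = 3.30e-05).

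Chrnb2, the nicotinic beta subunit (chromosome 3, 89746195 to 89764632, minus strand), ranged from 7.58 to 15.0 CPM with a median of 12 CPM in C201R Cre libraries, against 0 to 8.03 CPM and a median of 4.47 CPM in C201R no-Cre libraries. It rose by log2 1.38 ± 0.42 (SE; edgeR adjusted p = 0.0192), with 5 of 6 Cre libraries above every no-Cre library. Wild-type Cre libraries had 7.13, 9.77, 5.13, 12.4 and 11.8 CPM and wild-type no-Cre libraries ranged from 2.41 to 6.84 CPM with a median of 3.54 CPM, a log2 fold change of 1.27 ± 0.37 (SE; edgeR adjusted p = 0.00962). Part of Chrnb2 is overlapped on the other strand by Adar, and the sources used here do not say whether counting used strand, so reads of the 2 genes cannot be fully told apart. Chrna4, the alpha partner (chromosome 2, 181018380 to 181043546, minus strand), ranged from 5.24 to 11.1 CPM with Cre and from 7.04 to 15.1 CPM without Cre in C201R mice (log2 -0.52, 95% interval -1.09 to 0.05, edgeR adjusted p = 0.146). In wild type it had 3.96, 8.68, 6.45, 6.95 and 8.75 CPM with Cre and 5.58 to 11.5 CPM without (log2 -0.31, interval -0.97 to 0.35, edgeR adjusted p = 0.432). The sign of the Chrna4 value depended on scaling: it was 0.63 in C201R mice when only library totals were used, and 0.86 in C201R and 0.10 in wild type on log2(TPM + 1). In C201R mice those scalings moved the median of all genes to 1.13 and 0.90, so that relative to it Chrna4 was still lower, while in wild type the median on log2(TPM + 1) was -0.07. In the average Cre effect Chrna4 was -0.58 with a filter at 5 CPM (edgeR adjusted p = 0.00982) and -0.47 with limma-voom (adjusted p = 0.0113), both past the threshold.

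**Figure D2:**
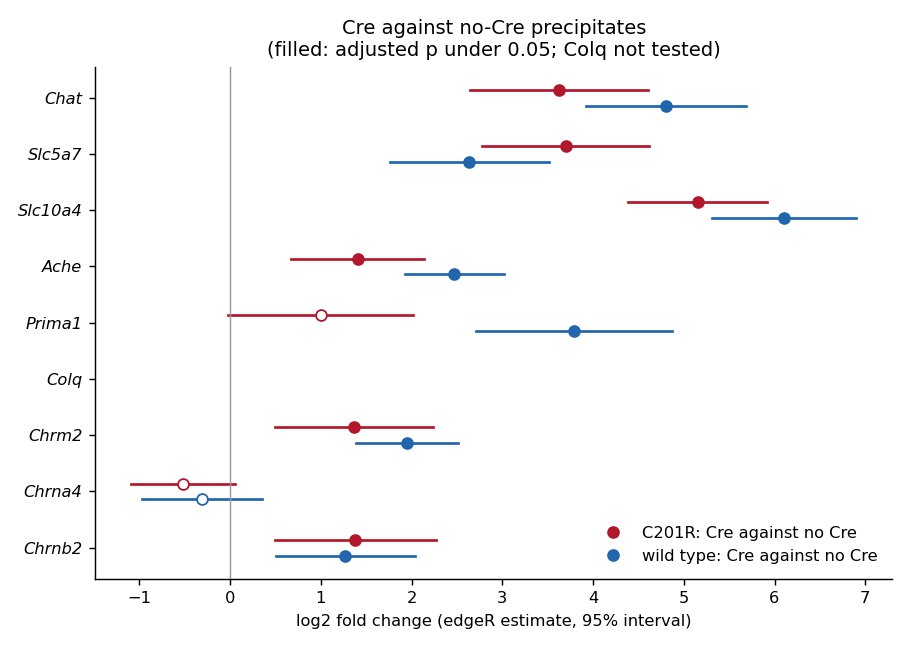
Log2 fold change of Cre against no-Cre libraries in C201R mice (upper symbol of each pair) and wild-type mice (lower symbol), with 95% intervals from edgeR; filled symbols passed an adjusted p of 0.05. The intervals of Chrna4 include 0 in both genotypes and that of Prima1 includes 0 in C201R mice only.

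The genes called were also counted without the libraries that stood apart, a set chosen after seeing the data. The set held the no-Cre library highest in Chat and the Cre libraries lowest in Chat of each genotype. The fit is therefore no independent check of the Cre effect. Leaving out C201R Cre replicates 4 and 6, wild-type Cre replicate 2, C201R no-Cre replicate 5 and wild-type no-Cre replicate 2 gave 7 genes higher in C201R mice, 7 in wild-type mice and 7 in the average. The C201R and wild-type fits then called 5923 and 6761 of all genes, against 4248 and 5735 in the main fits. The log2 fold changes were 4.47 in C201R and 5.47 in wild type for Chat, 4.10 in C201R and 3.24 in wild type for Slc5a7, and 5.53 in C201R and 6.06 in wild type for Slc10a4. With the mean of the glial markers as a covariate the counts of the 9 were 3 in C201R mice, 0 in wild type and 4 in the average, in fits that called 1579, 0 and 2088 of all genes. In the wild-type fit, which called no gene at all, the log2 values were still 3.70 for Chat, 3.49 for Slc5a7 and 5.35 for Slc10a4. With the mean of the motor neuron markers the counts were 0, 0 and 0, in fits that called 113, 0 and 85 of all genes. Summed motor neuron markers did not overlap between Cre and no-Cre libraries, so that covariate and Cre cannot be told apart.

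Levels between genes were compared per transcript length, in TPM. In C201R Cre libraries the order of medians was Ache 56.23, Slc5a7 52.05, Slc10a4 41.83, Chat 34.24, Prima1 29.64, Chrm2 16.52, Chrna4 5.96, Chrnb2 5.20 and Colq 0.35 TPM. In that order Slc10a4 was above Chat in 6 of 6 libraries, but Chat was above Prima1 in 3 of 6 and Ache above Slc5a7 in 4 of 6, so those neighbours were not separated. In wild-type Cre libraries the order was Prima1 35.31, Slc10a4 27.92, Ache 24.96, Chat 19.20, Slc5a7 17.17, Chrm2 9.74, Chrna4 2.03, Chrnb2 1.67 and Colq 0.26 TPM. There the top neighbours changed places between libraries, with Prima1 above Slc10a4 in 3 of 5 and Slc10a4 above Ache in 3 of 5. In both Cre groups every library placed Chrm2 above Chrna4 and Chrnb2 above Colq. Without Cre, Slc10a4 was next to last in both genotypes, with medians of 0.24 TPM in C201R and 0.48 TPM in wild type.

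The second comparison set C201R Cre against wild-type Cre libraries, the question in the series title. Of the 9 genes 0 were called by edgeR, against 0.331% of 12399 genes in all. At an unadjusted p under 0.05 there were 3 of the 9 and 2113 of all genes, DESeq2 called 1 of the 9 and 413 of all genes, and limma-voom with quality weights called 3 and 862. The median log2 difference was -0.37 over the 9 and 0.06 over all genes. The members therefore showed no difference that passed the main test, with 3 values below 0 whose intervals did not include 0.

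Prima1 differed most. It had a median of 8.61 CPM in C201R Cre libraries and 25.9 CPM in wild-type Cre libraries, where its values ran from 7.85 to 75.3 CPM. All 6 C201R libraries lay at or below 12.5 CPM, and 4 of the 5 wild-type libraries were above them, the exception being replicate 2. The log2 difference was -1.86 (95% interval -2.76 to -0.96, edgeR adjusted p = 0.0834), and it was called by DESeq2 (-1.91, adjusted p = 0.00101), by limma-voom (-1.58, adjusted p = 0.0111) and by edgeR without wild-type Cre replicate 2 (adjusted p = 0.00569). Of the 11 edgeR fits that each left out 1 library, only that 1 called Prima1. Their log2 values ran from -2.13 to -1.32, with edgeR adjusted p up to 0.227. With library depth outside ribosomal RNA-like genes as a covariate, an alternative chosen after seeing the data, the log2 difference was -0.31 (edgeR adjusted p = 0.846). Of the 5 wild-type Cre libraries 4 had at most 2825068 such counts and every C201R Cre library at least 2927104, so depth and genotype cannot be told apart in that fit. On library totals alone the Prima1 difference was -0.53 and on log2(TPM + 1) -0.44. Both scalings also moved the median of all genes up, so relative to that median Prima1 was lower than these values show.

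Slc10a4 averaged 56.5 ± 20.3 CPM in C201R Cre libraries (SD, n = 6) and 95.5 ± 13.6 CPM in wild-type Cre libraries (SD, n = 5), with 5 of 6 C201R libraries below every wild-type one. The log2 difference was -0.77 (95% interval -1.30 to -0.25, edgeR adjusted p = 0.169). Chat averaged 33.7 ± 13.7 CPM with Cre in C201R mice (SD, n = 6) and 56.1 ± 11.8 CPM with Cre in wild type (SD, n = 5), a log2 difference of -0.75 (interval -1.34 to -0.16, edgeR adjusted p = 0.22). limma-voom called both, Slc10a4 with an adjusted p of 0.0199 and Chat of 0.0401. Both signs turned when library totals alone set the scale, to 0.15 for Slc10a4 and 0.22 for Chat, and on log2(TPM + 1), to 0.23 and 0.24. Those scalings also moved the median of all genes, to 0.79 and 0.67, so that relative to it Slc10a4 and Chat remained lower.

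The other 6 genes showed smaller values between the genotypes. Slc5a7 averaged 109 ± 55.2 CPM in C201R Cre and 102 ± 22.3 CPM in wild-type Cre libraries, a log2 difference of 0.09 (95% interval -0.63 to 0.80). Ache averaged 46.2 ± 14.6 CPM in C201R Cre libraries and 53.3 ± 8.36 CPM in those of wild type with Cre (log2 -0.22, interval -0.69 to 0.25). The remaining values were -0.43 for Colq, -0.37 for Chrm2, 0.28 for Chrna4 and 0.29 for Chrnb2, each with an edgeR adjusted p of 0.492 or more. Their intervals reached from -1.83 for Colq to 0.98 for the same gene, and from -0.97 for Chrm2 to 0.82 for Chrnb2.

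**Figure D3:**
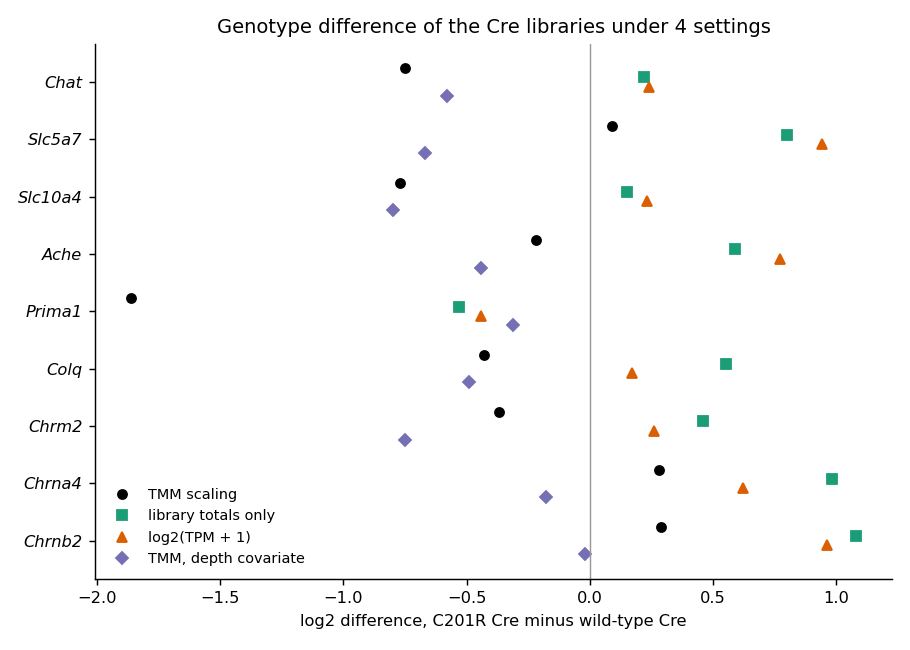
Log2 difference of C201R Cre minus wild-type Cre libraries for each gene under 4 settings: TMM scaling (circles), library totals only (squares), log2(TPM + 1) (triangles) and TMM with depth as a covariate (diamonds). Prima1 is below 0 under all 4, at -1.86, -0.53, -0.44 and -0.31, whereas Chat and Slc10a4 lie on both sides of 0. Squares and triangles also carry an upward shift of the median of all genes. Depth and genotype nearly coincide in these libraries, which limits the diamonds.

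Markers of other cells moved along with these values. The C201R Cre libraries lowest in Chat and Slc10a4, replicates 4 and 6 with 22.1 and 13.9 CPM of Chat and 39.5 and 25.6 CPM of Slc10a4, were also the lowest in summed motor neuron markers (286 and 190 CPM) and the highest in oligodendrocyte markers. Wild-type Cre replicate 2 was likewise the lowest of its group in Chat and Slc10a4, at 39.1 and 71.4 CPM, and in motor neuron markers at 493 CPM. Of the 14 motor neuron markers 0 were called between the genotypes, with a median log2 difference of -0.37. The 12 oligodendrocyte markers had a median of 1.61, 0 called. With the motor neuron marker mean as a covariate the log2 differences were -0.28 for Chat, -0.36 for Slc10a4 and -1.41 for Prima1, and with the glial mean -0.40, -0.46 and -1.45, 0 of them called. Without those 3 Cre libraries, 4 of the 9 genes were called: Prima1 at -1.95 (edgeR adjusted p = 0.00391), Slc10a4 at -0.61 (0.0163), Chat at -0.58 (0.0385) and Slc5a7 at 0.55 (0.0456), in a fit chosen after seeing the data, which called 1285 genes. All 4 remaining wild-type libraries of that fit had at most 2825068 counts outside ribosomal RNA-like genes and all 4 C201R libraries at least 3861661, so depth and genotype cannot be told apart in it.

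Library titles begin with a number whose meaning the labels do not give. Only 20302 and 20401 held both genotypes with Cre, 2 libraries of each. Within 20302 the differences of mean log2(CPM + 1), C201R minus wild type, were -0.73 for Chat, -0.63 for Slc10a4 and -1.53 for Prima1. Within 20401 they were -0.15, -0.26 and -1.16 for the same genes. All 3 kept their sign within both numbers, but in 20401 the wild-type libraries, replicates 1 and 2, lay far apart. Prima1 had 75.3 and 7.85 CPM in them, against 12.5 and 9.02 CPM in C201R replicates 3 and 5. Chat had 68.4 and 39.1 CPM, against 50.8 and 42.4 CPM. Wild-type replicate 2 was thus below both C201R libraries in these genes, and the sign there came from replicate 1. Slc10a4 had 100.3 and 71.4 CPM, against 80.3 and 62.1 CPM. In 20302 the 2 C201R libraries had at most 0.0329 CPM of the female-specific transcript Xist and the 2 wild-type libraries at least 14.9 CPM, so sex and genotype cannot be told apart there. The same C201R libraries had at least 5993784 counts outside ribosomal RNA-like genes and the wild-type ones at most 2668415. Depth and genotype therefore cannot be told apart in 20302 either. Between Cre and no-Cre libraries of C201R mice only 18405 held both, with C201R Cre replicates 4 and 6 and C201R no-Cre replicate 2. That comparison sets 2 Cre libraries against 1, so only its log2 values are given. They were 3.18 for Chat, 1.83 for Slc5a7, 4.27 for Slc10a4, 1.87 for Ache, 2.67 for Prima1, 0.70 for Chrm2, 0.75 for Chrnb2 and -0.96 for Chrna4. C201R Cre replicates 4 and 6 were also those highest in oligodendrocyte markers.

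Ratios between the 9 genes within a library do not depend on its scaling. In the ratio of choline transporter to synthesis enzyme, Slc5a7/Chat in TPM, C201R Cre libraries ranged from 1.14 to 2.26 and wild-type Cre libraries had 0.6, 1.82, 1.04, 0.895 and 0.838. The log2 ratio averaged 0.68 ± 0.40 in C201R and -0.05 ± 0.58 in wild-type libraries (SD, n = 6 and 5; exact permutation p = 0.0411, two-sided, adjusted over 6 ratios 0.0617). Ache/Chat averaged log2 0.85 ± 0.19 in C201R and 0.29 ± 0.38 in wild-type libraries (exact permutation p = 0.0108, adjusted 0.0455). Slc10a4/Chat was close in both, log2 0.31 ± 0.14 in C201R and 0.32 ± 0.19 in wild-type libraries (exact permutation p = 0.922, adjusted 0.922).

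The anchor ratios pointed the other way. Prima1/Ache ranged from 0.447 to 0.74 in C201R Cre libraries, while wild-type Cre libraries had 4.67, 0.418, 1.33, 1.09 and 1.51. Its log2 mean was -0.84 ± 0.28 in C201R and 0.42 ± 1.24 in wild-type libraries (exact permutation p = 0.0238, adjusted 0.0476). Prima1/Colq averaged log2 5.72 ± 0.37 in C201R and 6.86 ± 1.17 in wild-type libraries (exact permutation p = 0.0152, adjusted 0.0455). Colq had 0 counts in wild-type Cre replicate 1, so the ratio of 445 there was set by the pseudocount of 0.1 TPM, and it had at most 24 counts in any Cre library. Without that library the log2 difference in Prima1/Colq was -0.65 (adjusted exact permutation p = 0.114), so this ratio is not read as a difference between the genotypes. The subunit ratio Chrna4/Chrnb2 averaged log2 0.13 ± 0.47 in C201R and 0.67 ± 0.97 in wild-type libraries (exact permutation p = 0.268, adjusted 0.322). All 6 ratios overlapped between genotypes, and the smallest p that 6 against 5 libraries can give is 0.00216.

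Leaving out each of the 11 libraries in turn, Ache/Chat was called in 2 of 11 tests, Prima1/Ache in 1 and Prima1/Colq in 1, with adjusted exact permutation p up to 0.114. The log2 differences stayed between 0.41 and 0.67 for Ache/Chat and between -1.67 and -0.80 for Prima1/Ache, the values nearest 0 being those without wild-type Cre replicate 1. With fewer libraries the exact test has fewer regroupings, so the lost calls alone do not show that a difference was smaller. The 4 wild-type libraries other than replicate 2 were all outside the C201R range in Slc5a7/Chat (0.6 to 1.04), Ache/Chat (0.813 to 1.3) and Prima1/Ache (1.09 to 4.67). Replicate 2, whose 4466014 counts outside ribosomal RNA-like genes lay within the C201R range of depth, was inside the C201R range in 4 of the 6 ratios and just under it in Prima1/Ache (0.418). The transcript lengths behind the TPM values were 909 bases for Prima1, 2810 for Chat and 5176 for Slc5a7 in the first library. No-Cre libraries had Ache/Chat from 2.69 to 13.9 in C201R and from 1.1 to 8.89 in wild type. Their Slc5a7/Chat ran from 0.314 to 3.78 and from 2.54 to 4.3, and Prima1/Ache from 0.457 to 2.23 and from 0.482 to 1.43. The part of depth, length and RNA that came down without tagged ribosomes in the Cre ratios was not tested. Within title number 20302 the log2 differences, C201R minus wild type, were 1.04 for Slc5a7/Chat, 0.58 for Ache/Chat and -1.45 for Prima1/Ache, and within 20401 they were 0.71, 0.44 and -1.47. The 20401 values average wild-type replicates 1 and 2, whose Prima1/Ache of 4.67 and 0.418 lay on either side of both C201R libraries.

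**Figure D4:**
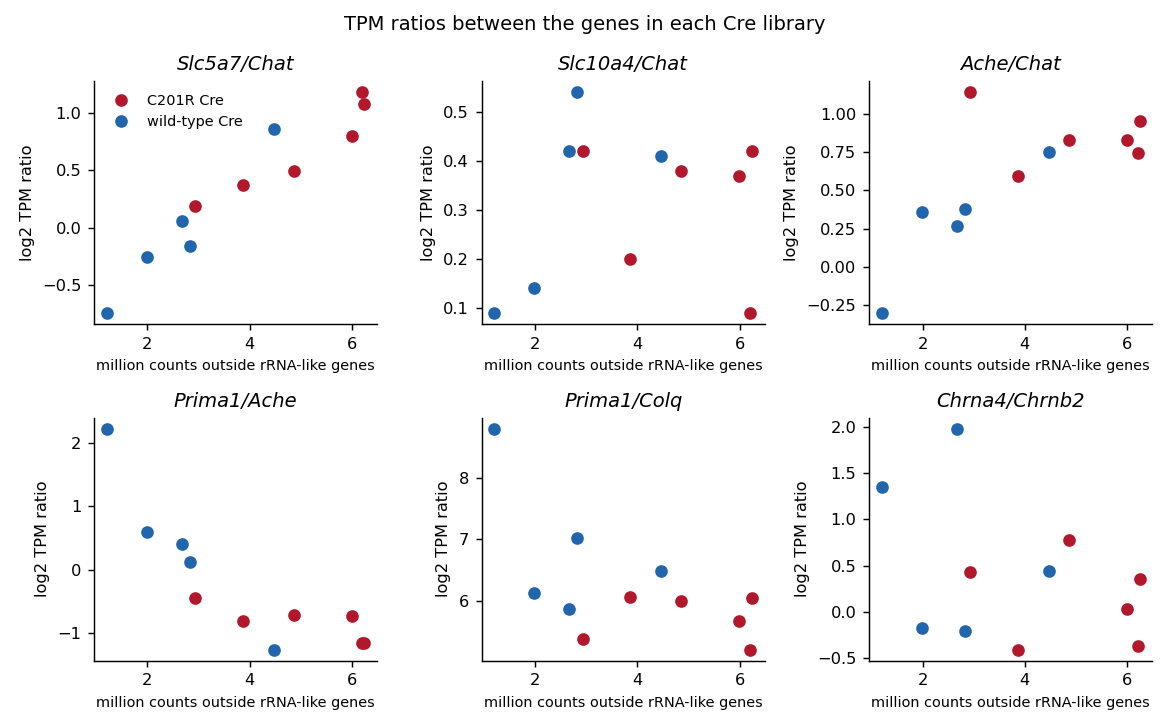
Log2 TPM ratio of 6 gene pairs (vertical axes) against counts outside ribosomal RNA-like genes (horizontal axes) in the 6 C201R Cre and 5 wild-type Cre libraries, 1 point each. In Slc5a7/Chat the wild-type library at 4466014 counts sits among the C201R libraries and in Prima1/Ache just under them, and the shallower 4 lie apart in both.

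Without Cre, C201R and wild-type libraries differed in 0 of the 8 genes tested by edgeR, against 0% of 12588 genes. At an unadjusted p under 0.05 there were 1 of the 8 and 565 of all genes, and DESeq2 and limma-voom also called 0 of the 8. The genotype difference with Cre minus that without was called in 0 of 9 genes, against 0.0207% of 14468 genes, with 2 of the 9 and 1524 genes at an unadjusted p under 0.05. The value farthest from 0 among the 2 was that of Prima1, -2.59 ± 0.71 (SE; edgeR adjusted p = 0.327), and that of Slc5a7 was 1.2 ± 0.60 (SE; edgeR adjusted p = 0.483) and 0.51 without wild-type no-Cre replicate 2. DESeq2 called 1 of the 9 in this comparison. The differing calls of Prima1 in the 2 genotypes are thus not shown to be a difference by edgeR.

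Across the 11 Cre libraries, the genes whose levels followed Chat most closely were Lrsam1, Abcb9, Bcl6 and Cpne6, each with a Pearson r of 0.98 of log2(CPM + 1) among 6095 genes, and Slc10a4 with 0.97 at rank 5. Of the other genes, Chrm2 had 0.87, Ache 0.84, Prima1 0.79, Slc5a7 0.62, Chrnb2 0.08 and Chrna4 -0.33. The Spearman values were 0.89 for Slc10a4, 0.55 for Chrm2, 0.54 for Ache, 0.98 for Prima1, 0.00 for Slc5a7, -0.15 for Chrnb2 and -0.45 for Chrna4. By rank, Slc5a7, Chrm2 and Ache thus followed Chat less closely, and Prima1 more closely. As deviations from each genotype's own mean, the values with Chat were 0.96 for Slc10a4, 0.86 for Chrm2, 0.86 for Ache, 0.75 for Slc5a7, 0.62 for Prima1, 0.43 for Chrnb2 and -0.14 for Chrna4. These are descriptions over 11 libraries, whose depth and marker levels also differed.

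Other genes of the pathway were counted from fixed lists, with 48 of 49 listed genes having a row and 30 tested in the average Cre effect. Of these, 9 were higher with Cre and 10 lower, against 22.1% and 34.7% of all genes, with a median log2 fold change of 0.10. For precursor supply, Acly, which makes cytosolic acetyl-CoA, rose by log2 2.24 (edgeR adjusted p = 1.18e-08), while Chka, which commits choline to phospholipid synthesis, fell by 1.53 (6.60e-07) and Pld1, which frees choline from phosphatidylcholine, fell by 2.57 (1.52e-08). In the list of choline and acetyl-CoA metabolism 3 of 9 rose and 3 fell. Among vesicle and choline transporters 0 of 3 tested rose and 1 fell, Slc44a1 at -1.68 (edgeR adjusted p = 3.38e-05). The second cholinesterase, Bche, fell by log2 1.36 (edgeR adjusted p = 0.0121).

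**Figure D5:**
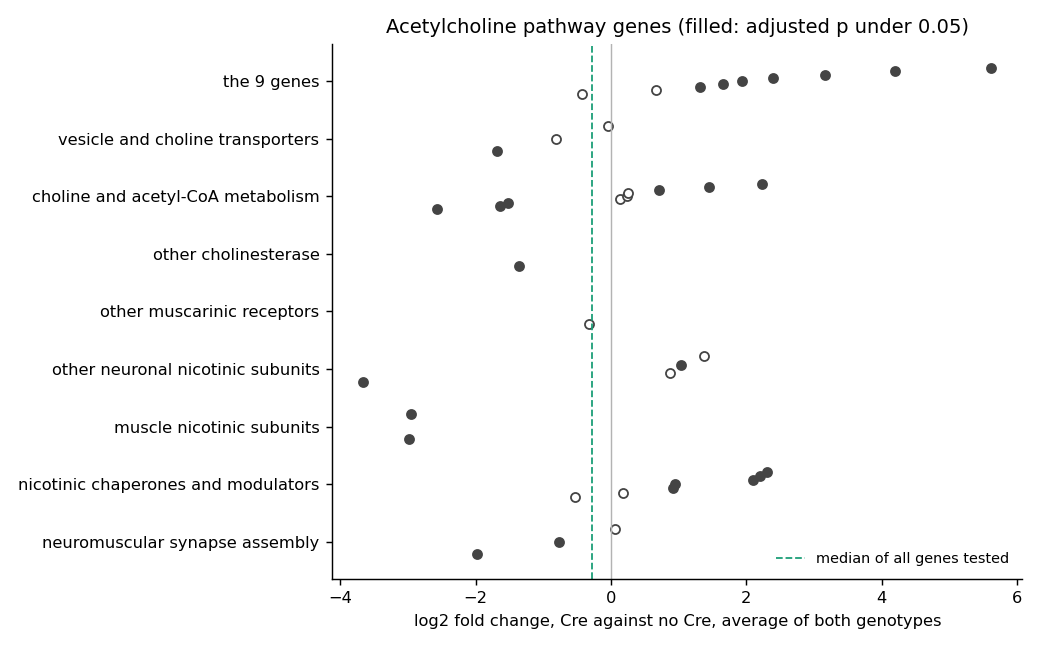
Average log2 fold change of Cre against no-Cre libraries over both genotypes for the 9 genes and 8 lists of other acetylcholine pathway genes, 1 point per tested gene, filled at an edgeR adjusted p under 0.05. The dashed line is the median of all genes at -0.28; 7 of the 9 genes, but 9 of the 30 others, are filled to the right of 0.

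Among nicotinic receptor genes, Chrna7, a subunit that forms receptors alone, rose by log2 1.04 (edgeR adjusted p = 0.027), Chrna2 fell by 3.66 (0.00202) and Chrna3 had 1.37 (0.0542). Chrna2 was near the limit of counting, with 18 counts in all C201R Cre and 1 in all wild-type Cre libraries. Without Cre it had 35 counts in C201R and 45 in wild type. Both tested subunits of the muscle receptor fell, Chrna1 by log2 2.96 (edgeR adjusted p = 3.13e-06) and Chrnb1 by 2.98 (0.00188). Summed skeletal muscle markers had lower medians with Cre as well, and 4 of 6 fell. In C201R mice the medians were 1.54 CPM with Cre and 56.3 CPM without. In wild type they were 3.06 CPM with Cre and 11.6 CPM without. Single libraries overlapped: C201R Cre replicates 4 and 6 had 49.5 and 81.2 CPM, and the lowest C201R no-Cre library 4.01 CPM. Chrna1 did not overlap in C201R mice, at 0.476 CPM or less with Cre and 1.40 CPM or more without. Chrnb1 did, with up to 0.689 CPM with Cre and 0 CPM in the lowest library without. Whether the muscle receptor genes followed muscle RNA was not tested. Of 7 chaperones and modulators of nicotinic receptors, 5 rose and 0 fell, among them Lynx1, a membrane-bound brake on the receptor, by log2 2.21 (edgeR adjusted p = 8.46e-11), Lypd6, of the same protein family, by 2.30 (1.75e-07) and Tmem35a, a chaperone of nicotinic receptor assembly, by 2.10 (9.17e-07). Of the genes that assemble the neuromuscular synapse, 0 of 3 tested rose and 2 fell, Lrp4 and Agrn. Only 1 of the other muscarinic receptor genes, Chrm3, was high enough to test, and it did not pass. Between the genotypes with Cre, 0 of 26 tested genes of these lists were called, against 0.331% of all genes.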

How the data were processed

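RNA was precipitated with anti-HA antibody and sequenced, per the labels' protocols. The authors deposited RSEM 1.2.12 expected counts and TPM per gene from Bowtie2 2.2.0 alignments, per the submitters' processing notes; no build or annotation is named in the sources used here, and 37607 of 38924 gene IDs matched GENCODE M21 (GRCm38), the source of the coordinates. Expected counts were rounded and tested with edgeR 4.0.16 (quasi-likelihood, R 4.3.3) after a filter (minimum count 10, total 15) and TMM scaling, with Benjamini-Hochberg adjustment over all genes and a threshold of 0.05. Each fit held the groups compared, or all 23 libraries for the average Cre effect and the difference of genotype effects. The procedure was tested on simulated data. TPM ratios used a pseudocount of 0.1 TPM and exact permutation tests over libraries. Alternatives were limma 3.58.1, DESeq2 1.42.0, other scalings, filters and covariates. The genes and lists were chosen with earlier results of these data known; from each list up to 3 genes with the smallest p in the average Cre effect were named. Libraries of 1 group differed by more than counting noise (chi-square per degree of freedom 8.53 or more in 55 pairs). Replicates were numbered in accession order and pair nothing.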

Additional observations from a re-analysis of the deposited data

Results flagged for a closer look

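Of 48 sets of 5 or 6 libraries examined, for the 9 genes in 4 groups and the 6 ratios in both Cre groups, 6 held a library far from the others; chance gives about 1 in 20. Chat had 8.21 CPM in C201R no-Cre replicate 5, where the other 5 libraries had 1.06 to 3.23 CPM. The same library was high in Prima1, 14.7 CPM where the others had 1.06 to 5.39 CPM, and had 594383 counts outside ribosomal RNA-like genes. Those values came from 14 counts of Chat and 25 of Prima1 under a TMM factor of 0.13. In TPM it had 0.41 of Chat and 2.95 of Prima1, within the group ranges of 0.19 to 1.53 and 1.36 to 7.4. Chat had 6.00 CPM in wild-type no-Cre replicate 2, where the others had 1.18 to 2.17 CPM, and Slc5a7 51.4 CPM there, where the others had 9.40 to 12.6 CPM. Slc10a4 in that library was 0.419 CPM, the lowest of its group. In TPM wild-type no-Cre replicate 2 had 1.15 of Chat and 5.2 of Slc5a7. Both lay within the group ranges of 0.23 to 1.25 and 0.99 to 5.7 TPM, so the flags of Chat, Prima1 and Slc5a7 depended on the TMM scaling. Colq had 2.31 CPM in C201R no-Cre replicate 6, where the others had 0 to 0.430 CPM. Slc10a4 was low in wild-type Cre replicate 2, 71.4 CPM where the others had 99.6 to 104 CPM.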

How the results depend on the processing

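With Cre in C201R mice, 6 genes were called and leaving out each library gave 6 to 7; in wild type 7 and 7 to 7; in the average 7 and 7 to 8. The glial covariate gave 3, 0 and 4 calls and the motor neuron covariate 0 in each. The motor neuron covariate cannot be told apart from Cre, nor can the glial one in wild type. Between genotypes with Cre the main count of 0 became 1 with DESeq2 (Prima1), 3 with limma-voom, 1 with no filter (Prima1, adjusted p = 0.02) and 4 without 5 libraries, and ranged from 0 to 2 leaving out each library; without Cre it stayed 0, and the difference of genotype effects gave 1 with DESeq2 and 0 to 0 on leaving out libraries. The depth covariate and the fit without 5 libraries were added after seeing the data. Prima1/Ache with a pseudocount of 1 TPM was -1.21 (adjusted exact permutation p = 0.0563). Leaving out each library, log2 ratio differences ranged from 0.41 to 0.67 for Ache/Chat, -0.76 to -0.21 for Chrna4/Chrnb2, -1.67 to -0.80 for Prima1/Ache, -1.38 to -0.65 for Prima1/Colq, -0.07 to 0.04 for Slc10a4/Chat and 0.56 to 0.96 for Slc5a7/Chat. Signs turned as follows, and the cause was not tested. The settings totals and TPM also moved the median of all genes, to 1.13 and 0.90 for Cre in C201R and to 0.39 and 0.28 in the average. Between genotypes with Cre they moved it up as well, by the values given with Slc10a4 and Chat above. Cre in C201R: Chrna4 0.63 (totals) and 0.86 (TPM); motor neuron covariate Slc5a7 -0.50, Ache -0.42, Chrm2 -1.30, Chrnb2 -0.55. Cre in wild type: Chrna4 0.10 (TPM) and 0.14 (glial), Prima1 -0.20 (glial); motor neuron covariate Slc10a4 -0.05, Ache -1.06, Prima1 -10.46, Chrm2 -0.61. Average: Chrna4 0.16 (totals) and 0.48 (TPM), Colq -0.45 (glial); motor neuron covariate Ache -0.24, Colq -2.71, Chrm2 -1.08. Genotype with Cre on totals: Chat 0.22, Slc10a4 0.15, Ache 0.59, Colq 0.55, Chrm2 0.46; on TPM: Chat 0.24, Slc10a4 0.23, Ache 0.77, Colq 0.17, Chrm2 0.26; Ache 0.03 (title number as a block), 0.01 (glial), 0.09 (motor neuron) and 0.02 (without 18405); Slc5a7 -0.04 (sex-linked covariate); Colq 0.02 (glial); Chrm2 0.05 (motor neuron); depth covariate Slc5a7 -0.67, Chrna4 -0.18, Chrnb2 -0.02. Leaving out each library, Colq ranged from -0.70 to 0.04 and Slc5a7 from -0.11 to 0.28 between genotypes with Cre. The Cre effect in wild type without title number 18405 had no such library to leave out. With title number as a block the Cre counts were 7 in wild type (8 libraries) and 8 in the average (21 libraries, 7 higher and Chrna4 lower). Those fits called 5769 and 6668 of all genes. In C201R the block left 3 libraries, of which only no-Cre replicate 2 lacked Cre, so its calls are not counted. No paired analysis was possible because replicate numbers follow accession order only.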
